A study of Mus musculus with 32 samples.

Results

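Corticosterone (cort), the main glucocorticoid of the mouse, was compared with vehicle (veh) in the livers of mice fed a high-protein diet (HPD). The groups were taken from the labels, and 7 of the 32 libraries of the series entered the comparison: 4 of liver Cort HPD and 3 of liver Veh HPD. All mice were male C57BL/6 aged 10 weeks that drank either cort or 1% ethanol alone for 7 days, and 60% of the calories of the HPD came from protein. The same treatments on a normal-protein diet (NPD, 20% of calories from protein) gave 8 further liver libraries, 4 with cort and 4 with veh, which share 1 estimate of the spread with the HPD libraries and whose values are used where the diets are set against each other. The HPD carried less starch, so a higher protein intake cannot be told apart from a lower starch intake. Whole liver was profiled with a 3′ end kit that reads the end of each polyadenylated transcript, after a fast of 4 h. The study's methods speak of several cohorts of mice, and nothing in the labels ties a library to a litter or a cohort, so the p-values measure the spread between these libraries.

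Glucocorticoids enter hepatocytes, bind the glucocorticoid receptor (encoded by Nr3c1) and carry it to DNA, where it raises or lowers transcription of genes of glucose, amino acid and lipid handling and represses many inflammatory genes. In the blood most of the hormone is held by corticosteroid-binding globulin, a liver product, and inside the liver it is regenerated by 11β-hydroxysteroid dehydrogenase type 1 and broken down by reductases. The male pattern of mouse liver, with its abundant major urinary proteins, depends on pulses of growth hormone that act through the growth hormone receptor and STAT5.

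The HPD libraries held 11659322 to 16153658 counts with veh and 13752553 to 17447524 with cort. A 4th Veh HPD library was left out: on a principal component analysis of all 16 liver libraries it lay at 57.1 on the second component and the others between -25.4 and 12.8. Its level of Mup3, a major urinary protein, was 173 CPM (counts scaled to a common library total), against 11636, 11025 and 15234 in the other 3. Mup3 is among the genes higher in male liver whose fall with cort is reported below. Its low level is therefore no independent ground for leaving the library out. The number of these male-biased genes called was 1 in place of 12 with the library put back. Without it, the first component of the 15 libraries held 51.57% of the variance and placed every cort library (14.6 to 25.03) apart from every veh library (-29.8 to -14.7). Cort HPD replicate 1 also stood apart from its group: the chi-square per degree of freedom between its counts and those of the other 3 was 107.5 to 138.8, against 14.1 to 23.5 among them, and its 10 most abundant genes took 42.2% of counts, against 32.8 to 34.0%. Defining hepatocyte genes were present in every library. Levels are given as CPM in replicate order, with the library total scaled by the trimmed mean of M-values (TMM). Sums over cell markers use the plain library total instead. A gene is called where the adjusted p-value (edgeR quasi-likelihood test, Benjamini-Hochberg over all genes tested) was under 0.05.

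Cort changed 1226 of the 12391 genes tested on the HPD (9.89%). Of these, 589 rose (4.75% of genes tested) and 637 fell (5.14%), and 1145 were protein-coding. The change was at least 2-fold for 270 of the genes that rose and 350 of those that fell, and at least 4-fold for 83 and 117. Groups did not overlap for 1147 of the called genes, against 2626 of all genes tested (21.2%). With library totals and no scaling factor, the median log2 fold change of all genes was -0.24 in place of -0.004, and the calls split into 275 higher and 1272 lower, so directions here are relative to the bulk of the transcripts. The count rested most on Veh HPD replicate 1, without which 714 genes were called (352 higher, 362 lower). Without Cort HPD replicate 1 it was 1113, and 924 of the calls were kept. With the excluded library put back, 1114 were called and 846 were kept. A fit of the 7 HPD libraries alone called 839, and leaving out any 1 NPD library gave 1142 to 1222.

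**Figure D1:**
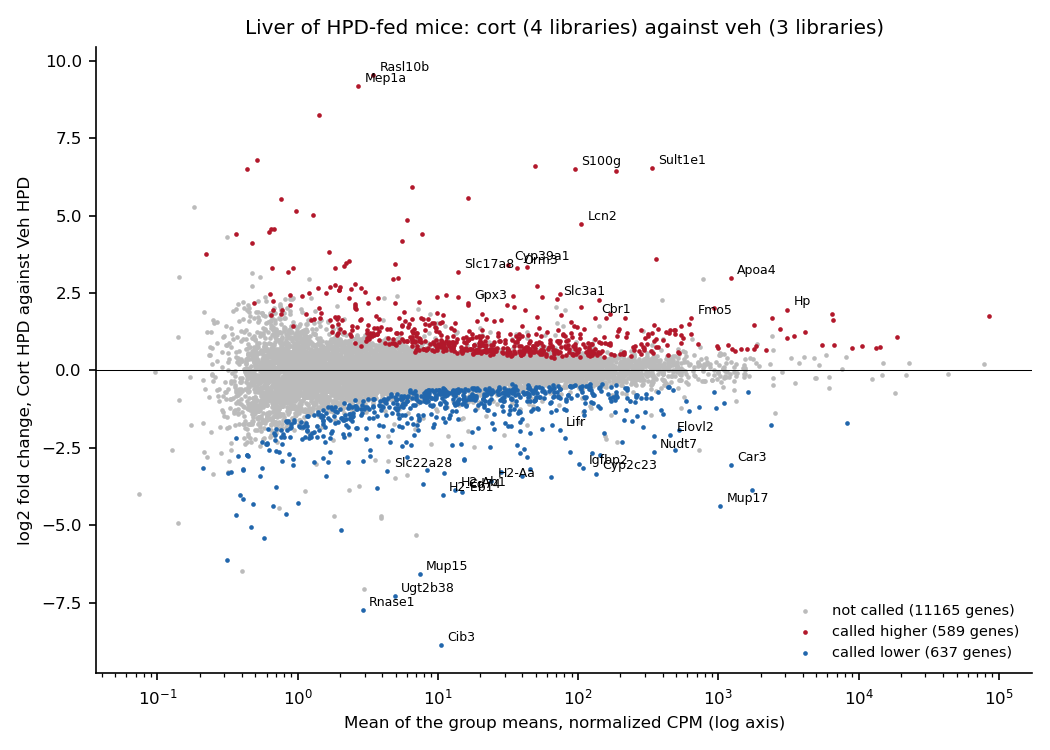
Each point is 1 of 12391 genes, placed by the mean of the group means in CPM (log axis) and by its log2 fold change between Cort HPD (4 libraries) and Veh HPD (3 libraries). The 589 genes called higher are red and the 637 called lower are blue, and a selection of genes with small p-values or wide changes is named, from Rasl10b at the top to Cib3 at the bottom.

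Genes that carry, regenerate and break down cort were examined first. Serpina6, which encodes corticosteroid-binding globulin, stood at 74.6, 72.2 and 99.9 CPM with veh and 9.66, 5.47, 12.3 and 9.06 CPM with cort, so the groups did not overlap. It fell 9.05-fold (log2 fold change -3.18 ± 0.33 SE, edgeR adjusted p = 1.60e-05). Srd5a1 and Akr1c6, which encode reductases of steroids, fell as well, by 1.29 and 1.17 on the log2 scale (edgeR adjusted p = 1.33e-04 and 0.00109). Cyp3a11, a steroid and drug hydroxylase, rose from 218, 444 and 441 CPM to 2979, 1096, 762 and 1122 CPM, highest in Cort HPD replicate 1, without which the log2 fold change was 1.43 in place of 2.02. The receptor gene itself, Nr3c1, measured 40.2, 39.6 and 52.2 CPM with veh and 45.8, 34.3, 48.4 and 36.1 CPM with cort, and its log2 fold change of -0.10 ± 0.17 was not called. Hsd11b1, for the regenerating enzyme, was not called either (log2 0.44 ± 0.25). Of the 12 genes of this list that were tested, 1 rose and 3 fell, and their median log2 fold change was -0.05. With the excluded veh library put back the number called was 2.

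The listed targets of the glucocorticoid receptor did not move one way. Of 22 tested, 2 rose and 6 fell, with a median log2 fold change of -0.41, and 5 in all were called with the excluded veh library put back. The 2 that rose did so widely: Lcn2, which encodes the iron-siderophore carrier lipocalin 2, went from 8.43, 9.25 and 5.14 CPM to 161, 214, 173 and 262 CPM, and Sult1e1, the estrogen sulfotransferase, from 5.36, 12.1 and 4.32 CPM to 1155, 599, 434 and 471 CPM. Neither gene's groups overlapped. The excluded veh library held 108 CPM of Lcn2, and with it put back Lcn2 was not called (log2 2.66 in place of 4.74, edgeR adjusted p = 0.0607). Sult1e1 was still called in that fit (log2 5.95). Per1, a clock repressor, fell from 9.93, 12.5 and 10.8 CPM to 2.54, 4.36, 3.14 and 4.6 CPM (log2 -1.58 ± 0.33, edgeR adjusted p = 0.00416). Klf9, a transcription factor, fell from 561, 554 and 540.1 CPM to 116, 246, 267 and 273 CPM, and Errfi1, an inhibitor of epidermal growth factor receptor signaling, from 411, 452 and 418 CPM to 229.7, 219.6, 189 and 281 CPM. Zbtb16, Angptl4 and Nfkbia were also called lower (log2 -2.80, -1.06 and -0.63). Fkbp5, a receptor cochaperone, measured 15.6, 77.7 and 34.9 CPM with veh and 77.6, 108, 79.9 and 112 CPM with cort, and its groups overlapped: Veh HPD replicate 2 lay among the lowest cort libraries, and the gene was not called (log2 1.15 ± 0.51). Without that library it was called, at a log2 fold change of 1.92 (edgeR adjusted p = 0.0318). Tsc22d3 and Tat, a leucine zipper factor and the first enzyme of tyrosine breakdown, were not called (log2 -0.13 ± 0.33 and -0.46 ± 0.40). Without Veh HPD replicate 2 the calls of Zbtb16, Angptl4 and Nfkbia were lost, as was that of Zbtb16 without Cort HPD replicate 2 and that of Nfkbia without Veh HPD replicate 1 (edgeR adjusted p of up to 0.0664, 0.0896 and 0.0977).

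Promoter windows were read for the DNA motif of the glucocorticoid receptor, AGAACA, 3 bases of any kind and TGTTCT. The windows, from RefSeq on GRCm38.p6, hold 250 bases before and 50 after each gene start, and 9473 genes tested had at least 1. A single arm of the motif, AGAACA or TGTTCT, was in a window of 15.1% of these genes, of 16.8% of the 458 called higher and of 17.1% of the 475 called lower. The full motif with at most 2 mismatches in its 12 fixed bases was in 1.35% of all genes, 2.4% of those called higher and 1.26% of those called lower. None of the 16 genes with the smallest p that had a window held it. Exact copies were in 2 genes, and 1 of them was called: Acnat2, an acyl-CoA amino acid N-acyltransferase, singled out after its value was seen. Its window is shown because it is the only exact copy beside a changed gene, with both arms in capitals, 102 to 88 bases before the gene start (GRCm38.p6, chr4:49408102-49408401, minus strand).

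Acnat2: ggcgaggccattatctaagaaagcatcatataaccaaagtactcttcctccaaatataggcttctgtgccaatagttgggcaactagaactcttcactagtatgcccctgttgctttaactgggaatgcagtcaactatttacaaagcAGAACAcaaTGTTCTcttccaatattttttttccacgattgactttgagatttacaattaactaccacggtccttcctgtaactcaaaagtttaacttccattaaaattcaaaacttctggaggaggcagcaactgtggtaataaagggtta

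Acnat2 rose from 21.8, 35.5 and 11.5 CPM to 129, 116, 108 and 149.8 CPM, with no overlap between the groups (log2 2.46 ± 0.32, edgeR adjusted p = 1.54e-04). A match is a description of these letters and says nothing of binding.

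Sex-biased liver genes moved in opposite directions. Of 16 tested genes that are higher in female liver, 7 rose and none fell, and of 25 that are higher in male liver, none rose and 12 fell. Their median log2 fold changes were 2.32 and -1.28. The female-biased list holds 29 genes, and only these 16 passed the filter on low counts. In male mice a gene near silent with veh can pass it through the cort libraries and has no room to fall. The absence of falls and the median of 2.32 are therefore partly set by the filter. With the excluded veh library put back 1 of the 25 male-biased genes was called, Ugt2b38. Cyp39a1, an oxysterol hydroxylase, rose 10.7-fold, from 4.24, 6.48 and 5.68 CPM to 48.7, 56.8, 77.6 and 49.3 CPM (log2 3.42 ± 0.26, edgeR adjusted p = 1.73e-08). Cyp17a1, a steroid hydroxylase and lyase, rose from 26.2, 61 and 75.8 CPM to 704, 671, 645 and 629 CPM, and the P450 genes Cyp2c40 and Cyp2c69 rose by 3.34 and 2.38 on the log2 scale. In all of these genes every cort library lay above every veh library.

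Among the male-biased genes the major urinary proteins fell together. Mup3 went from 11636, 11025 and 15234 CPM to 5060.2, 3387, 3495 and 3645 CPM (3.24-fold lower, edgeR adjusted p = 3.65e-04). Mup17, Mup11 and Mup12 fell by 4.37, 3.87 and 3.01 on the log2 scale. Mup15, which is not among the 25, was at 19.1, 7.69 and 17.1 CPM with veh and had 8 counts in all 4 cort libraries together, a ratio of 107.4 with a 95% counting interval of 54.2 to 249.7. Ugt2b38, a glucuronosyltransferase, had 472 counts with veh and 3 with cort (ratio 197.3, interval 67.1 to 959.9). Cyp2u1 fell from 47.2, 40 and 52.8 CPM to 12.5, 21.5, 19.1 and 23.6 CPM, and Elovl3, an elongase of very long fatty acids, from 143, 139 and 172 CPM to 6.61, 19.6, 31 and 39.9 CPM. The Mup, Cyp2c and Ugt2b genes are families of near-identical copies whose reads the counting may split, so a value of 1 member is uncertain. With the excluded veh library put back, Mup3, Mup11, Mup12, Mup17, Elovl3 and Cyp2u1 were among those not called (edgeR adjusted p = 0.325, 0.120, 0.130, 0.0737, 0.202 and 0.185).

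The insulin and insulin-like growth factor axis had 7 of 24 tested genes lower and none higher. Igfbp2, an insulin-like growth factor binding protein, was at 182, 199.9 and 202 CPM with veh and 15.6, 20.1, 32.4 and 19.7 CPM with cort, the second smallest p among genes that fell (8.88-fold, edgeR adjusted p = 2.63e-09). Of the 20 genes of IL-6, JAK-STAT and SOCS signaling none rose and 4 fell. Socs2, a feedback inhibitor of growth hormone signaling, fell from 68, 40.4 and 90.4 CPM to 9.49, 8.32, 10.8 and 13.7 CPM. Lifr, the leukemia inhibitory factor receptor, fell from 125, 79 and 148 CPM to 31.9, 27.4, 34.3 and 29.4 CPM (log2 -1.93 ± 0.19, edgeR adjusted p = 5.44e-07).

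**Figure D2:**
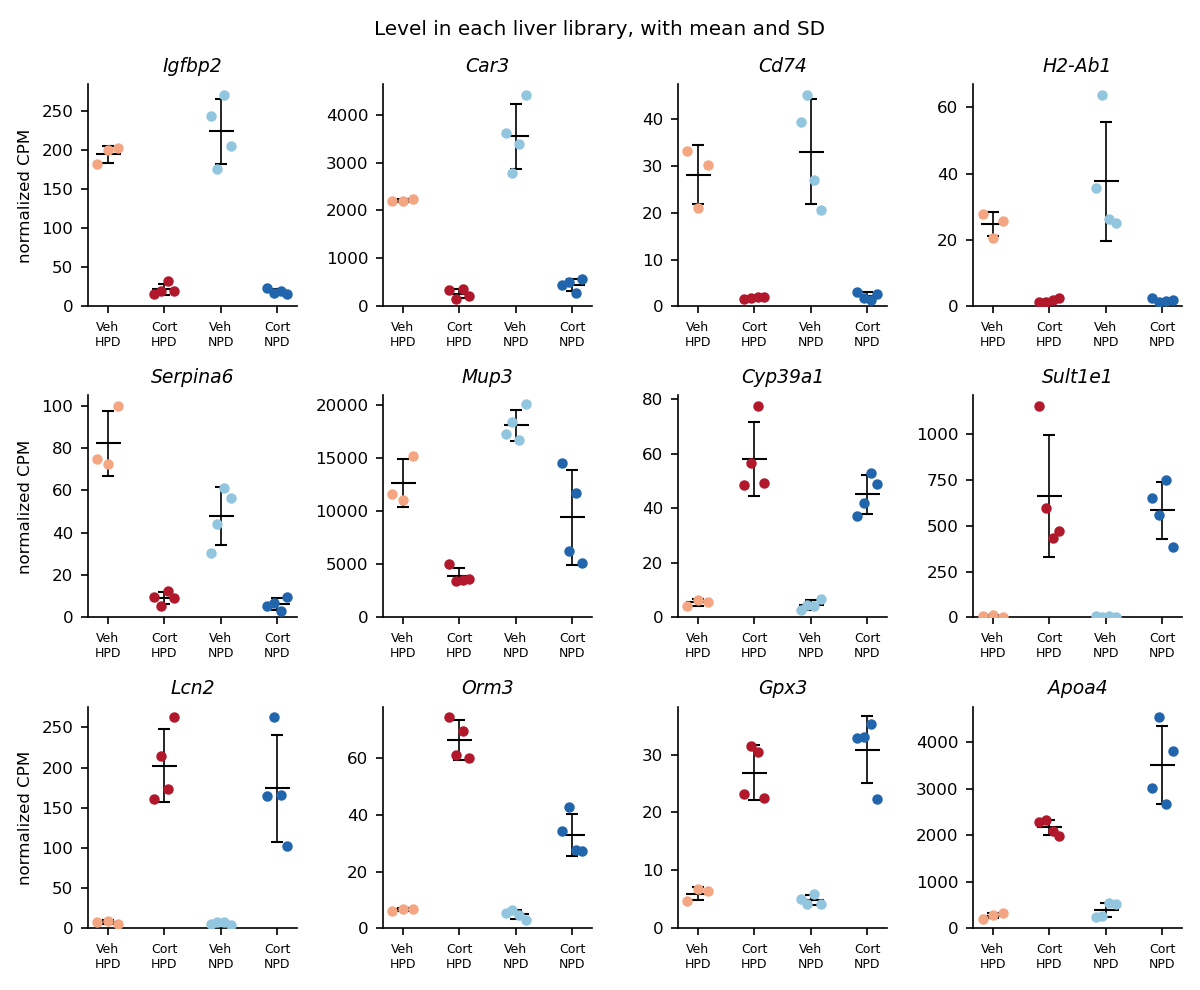
Normalized CPM of 12 genes (linear axis from 0) in each of the 15 liver libraries, with the mean and SD of each group. For these 12 genes no Cort HPD point overlaps the Veh HPD points, and the NPD groups, shown for comparison, are separated in the same direction.

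Genes of antigen presentation by MHC class II fell as a group. Of 7 tested 6 fell and none rose, and the median log2 fold change was -3.56. The list holds 11 genes, and only these 7 passed the filter on low counts. A gene near silent with cort can pass it through the veh libraries and has no room to rise. The summed level of the 7 genes was 133.7 to 189.3 CPM in the veh libraries and 25.1 to 54.8 CPM in the cort libraries. Cd74, the invariant chain, went from 33.1, 21.1 and 30.1 CPM to 1.53, 1.8, 1.99 and 2.08 CPM (log2 -3.92 ± 0.29, edgeR adjusted p = 1.73e-08). The class II chains H2-Ab1, H2-Eb1 and H2-Aa fell by 3.86, 4.03 and 3.56 on the log2 scale, and H2-Ab1 was at 27.7, 20.7 and 25.7 CPM with veh and 1.19, 1.34, 1.91 and 2.38 CPM with cort. The peptide loading chains H2-DMa and H2-DMb1 fell as well (log2 -2.82 and -2.94, the latter -3.85 without Cort HPD replicate 3). Of 20 tested genes of class I and the immunoproteasome, 1 rose and 1 fell, the latter H2-Q7 (log2 -0.91 ± 0.15), a share close to that of all genes. Leaving out any 1 veh library, or Cort HPD replicates 3 or 4, left 1 of these calls.

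Markers of several other cell types were lower with cort, though not those of every type. Sums here use plain library totals without the TMM factor, a scale on which the median log2 fold change of all genes was -0.24. Falls in the sums are therefore wider than on the scale used for single genes. The summed level of 15 Kupffer cell and macrophage markers was 425 to 534 CPM with veh and 235 to 343 CPM with cort, and 7 of the 15 were called lower and none higher. For 14 T and NK cell markers the sums were 9.01 to 15.4 CPM and 2.75 to 6.13 CPM, and 2 of the 8 tested were called lower. For 10 B and plasma cell markers they were 12.4 to 31 CPM and 2.75 to 6.98 CPM, with only 2 tested and 2 called lower. Only these 8 and 2 lymphocyte markers passed the filter on low counts. A marker near silent with cort can pass it through the veh libraries and has no room to rise. The absence of rises among them may therefore be partly set by the filter. Markers of sinusoidal endothelium fell in 3 of 11, with sums of 210 to 258 CPM and 130 to 166 CPM. Stellate cell and fibroblast markers, also 3 lower of 11, summed to 333 to 462 CPM and 246 to 337 CPM. Neutrophil markers did not fall, with sums of 6.35 to 19.8 CPM and 6.62 to 21.2 CPM and 0 of 4 tested called. Cholangiocyte markers did not either, with sums of 37.3 to 49 CPM and 43.4 to 56 CPM and 1 of 7 tested called higher. Globin and other red cell genes summed to 1900 to 3850 CPM with veh and 4630 to 6950 CPM with cort, with 2 of 7 called higher and 1 lower. The 10 hepatocyte markers, at 85600 to 92000 CPM and 142000 to 188000 CPM, had 2 called higher and 1 lower. In whole liver fewer cells of a type and less RNA per cell cannot be told apart, and the part of cell makeup in the class II result was not tested.

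Acute phase proteins were split. Of 30 tested, 10 rose and 4 fell, with a median log2 fold change of 0.48. Orm3, an orosomucoid, had the smallest p of all genes that rose: it measured 6.19, 6.91 and 6.89 CPM with veh and 74.5, 60.9, 69.5 and 60 CPM with cort (9.93-fold, edgeR adjusted p = 2.63e-09). Hp, haptoglobin, rose from 1197, 1306 and 1289 CPM to 4598, 4516, 6549.6 and 4107 CPM. The protease inhibitor genes Serpina3m, Serpina3n and Serpina3k, members of another family of close copies, rose by 1.49, 1.21 and 1.10 on the log2 scale, and Lbp, for the lipopolysaccharide binding protein, by 0.75. Hamp, which encodes the iron hormone hepcidin, fell from 462, 441 and 799 CPM to 151, 109.7, 145 and 121 CPM (edgeR adjusted p = 1.29e-05), and Steap4, a metalloreductase, fell from 66.1, 42.3 and 45.1 CPM to 22.2, 11.9, 13.5 and 11.7 CPM. Saa1, serum amyloid A, was not called and showed how far Cort HPD replicate 1 stood out: its level there was 600.3 CPM and 75.4 to 94.7 CPM in the other cort libraries, against 253, 110.4 and 89.3 CPM with veh. Of 38 complement and coagulation genes 1 rose and 8 fell, at a median of -0.20 against -0.004 for all genes tested. Without Veh HPD replicate 1 or Cort HPD replicate 2 the number called was 3 or 4 in place of 9.

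Few interferon-stimulated genes passed the test, and those that did rose. Of 40 tested 6 rose and none fell, the median log2 fold change was 0.68, and 36 had a positive value. The summed level was 2914, 1283 and 1390 CPM with veh and 5822, 3041, 2921 and 2505 CPM with cort, so Veh HPD replicate 1 overlapped the cort libraries. That library held the highest veh value for 39 of the 40 genes. Oasl1, an oligoadenylate synthase-like protein, went from 27.2, 5.79 and 7.84 CPM to 54.9, 65, 60.6 and 46.3 CPM (log2 2.04 ± 0.43, edgeR adjusted p = 0.00876). Ifit3, which takes part in the block of viral RNA, went from 87.5, 22.7 and 33.3 CPM to 453, 194, 164 and 126 CPM. Its near copy Ifit3b, the RNA helicase gene Dhx58, the protease gene Usp18 and the GTPase gene Irgm1 rose by 2.42, 0.90, 1.36 and 1.31 on the log2 scale. Ifit1 was at 308, 65.4 and 37.1 CPM with veh and 1569, 414, 377 and 289 CPM with cort and was not called (log2 2.27 ± 0.78). HPD groups did not overlap for 5 of the 40 genes, a smaller share than the 21.2% of all genes tested. Without Veh HPD replicate 1, 23 of the 40 were called and the log2 fold changes of Oasl1, Ifit3, Ifit3b and Usp18 were 3.04, 3.05, 3.49 and 1.999. Ifit1 was then called as well (log2 3.69, edgeR adjusted p = 0.0182), as it was by DESeq2 and limma voom (adjusted p = 0.0151 and 0.0437), and its log2 fold change was 1.39 without Cort HPD replicate 1. The number called was 1 without Veh HPD replicate 2 or 3, 2 without Cort HPD replicate 1, 3 without Cort HPD replicate 2, 14 by limma voom and 13 by DESeq2. Leaving out Veh HPD replicate 2 or 3 ended the calls of Ifit3, Ifit3b, Dhx58, Usp18 and Irgm1 (edgeR adjusted p of up to 0.0800, 0.123, 0.127, 0.100 and 0.147).

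Chemokines and cytokines had 3 of 29 higher and 3 lower (20.7% called, against 9.89% of all genes tested). The number called was 3 without Veh HPD replicate 2 or Cort HPD replicate 2. Tnfsf10, which encodes the death ligand TRAIL, rose from 3.57, 1.9 and 1.96 CPM to 11.4, 6.8, 7.12 and 7.2 CPM (log2 1.69 ± 0.29, edgeR adjusted p = 5.62e-04). Il1r1, the interleukin 1 receptor, fell from 14.8, 20.3 and 16.6 CPM to 7.12, 5.93, 3.83 and 4.68 CPM.

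**Figure D3:**
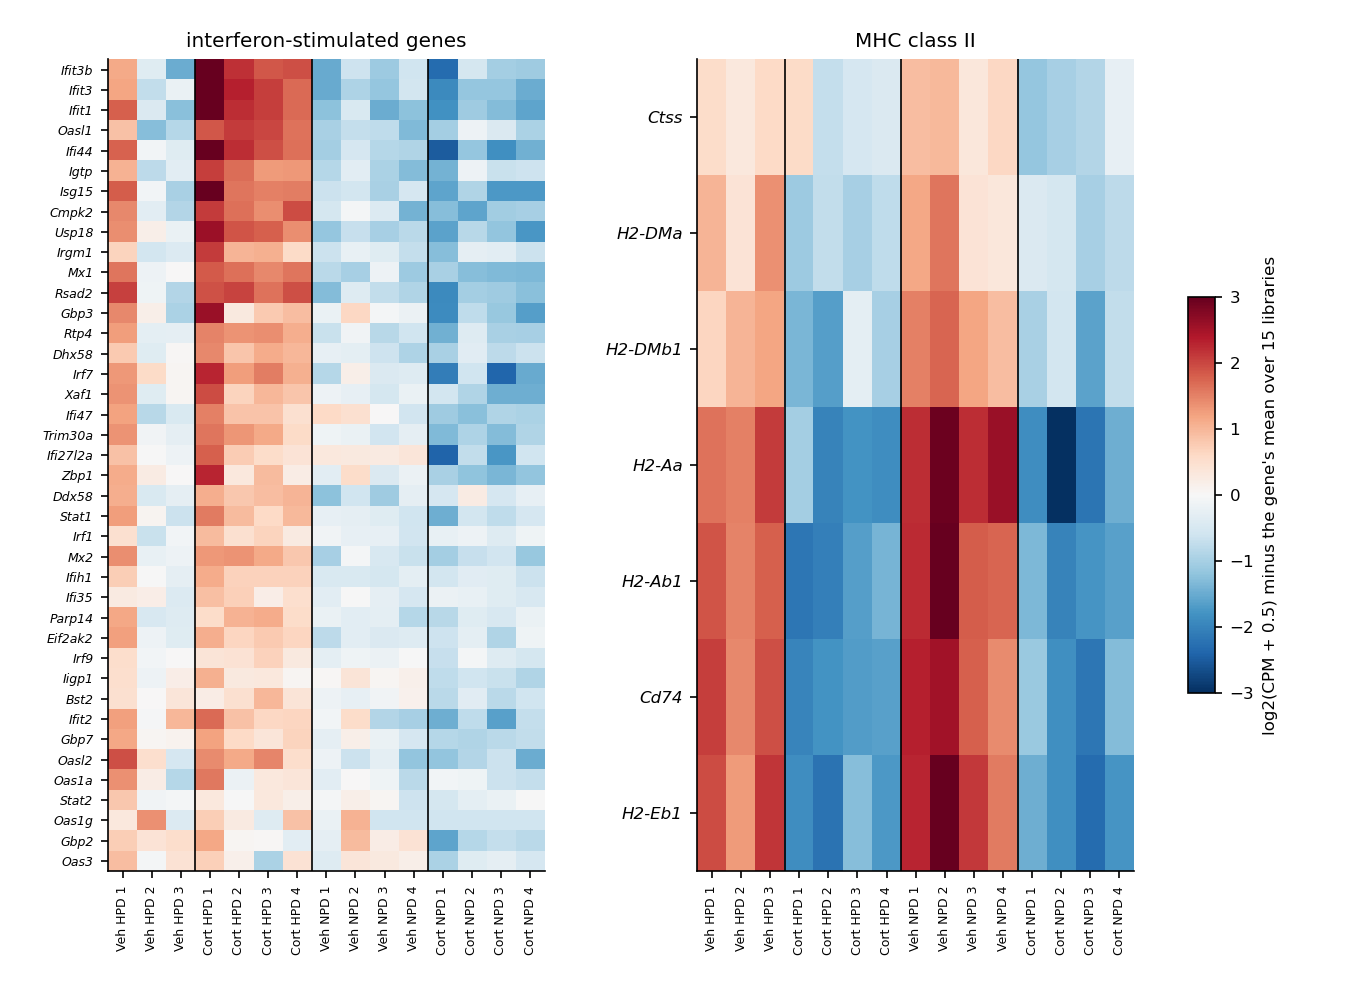
Each cell is 1 gene in 1 of 15 liver libraries, colored by log2(CPM + 0.5) minus that gene's mean over the 15 libraries (scale from -3 to 3), for the 40 interferon-stimulated genes and the 7 MHC class II genes tested. Cort libraries on the HPD are red for most interferon-stimulated genes, as is Veh HPD replicate 1, and blue for the class II genes, apart from Ctss in Cort HPD replicate 1. The summed class II CPM was 133.7 to 189.3 with veh and 25.1 to 54.8 with cort.

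Genes of sugar breakdown rose at several steps. Of 17 glycolysis genes tested 6 rose and 1 fell (median log2 0.42), and of 12 genes of fructose and sucrose breakdown 4 rose and 1 fell (median 0.02). Without Veh HPD replicate 1 the glycolysis calls numbered 4 in place of 7. Tkfc, the triose kinase of fructose breakdown, rose from 86.1, 72.4 and 66.7 CPM to 273, 340.3, 174 and 269 CPM (log2 1.81 ± 0.22, edgeR adjusted p = 9.32e-06). The fructokinase gene Khk and the fructose transporter gene Slc2a5 rose by 0.87 and 1.52 on the log2 scale, the latter by 2.21 without Veh HPD replicate 3. Gpi1, Pfkl and Pklr, for glucose phosphate isomerase, phosphofructokinase and pyruvate kinase, rose by 1.18, 0.96 and 0.85. Txnip, a sugar-sensitive arrestin, fell from 65.8, 107 and 103 CPM to 36.5, 36.3, 38.3 and 34.9 CPM. The call of Pklr was lost without any 1 of 6 HPD libraries, among them all 3 veh libraries (edgeR adjusted p of up to 0.101).

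Of the 20 gluconeogenesis genes 2 rose and 1 fell (15% called, against 9.89% of all genes tested), with a median of 0.05. G6pc, the catalytic subunit of glucose 6-phosphatase, rose from 240, 208 and 137 CPM to 253, 591, 375 and 536 CPM (log2 1.17 ± 0.26, edgeR adjusted p = 0.00594). Slc37a4, its transporter partner, rose from 70.8, 114 and 146 CPM to 295, 278, 303 and 250 CPM. Pck1, phosphoenolpyruvate carboxykinase, was at 1545, 2194 and 1077 CPM with veh and 1528, 1421, 1154 and 1814 CPM with cort, with overlap between the groups (log2 -0.12 ± 0.22, not called). Fbp1, fructose bisphosphatase, missed the threshold (log2 0.46 ± 0.15, edgeR adjusted p = 0.0535) but was called by DESeq2, by limma voom and with the excluded veh library put back (adjusted p = 0.00687, 0.0403 and 0.0391). Crtc2, a coactivator of the fasting response, fell from 14.2, 13.7 and 15.1 CPM to 10.1, 3.37, 3.14 and 4.01 CPM, and its call was lost without any 1 of 5 HPD libraries (edgeR adjusted p of up to 0.0623). The glucagon receptor gene Gcgr was not called (log2 -0.30 ± 0.14), other than with library totals and no scaling factor (log2 -0.55). Glycogen metabolism had 2 of 12 higher and none lower (16.7% called), among them Ugp2, which makes UDP-glucose (log2 1.14 ± 0.22). Without Veh HPD replicate 1 the number called was 1.

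Amino acid breakdown moved in both directions, with 9 of 50 genes higher and 6 lower and a median of 0.04. The genes that rose with the smallest p were of sulfur amino acid metabolism: Bhmt, betaine-homocysteine methyltransferase, rose from 1106, 1013 and 720.2 CPM to 3853, 1832, 2709 and 2181 CPM (edgeR adjusted p = 2.11e-04). Cdo1, cysteine dioxygenase, rose from 1914, 3019 and 2405 CPM to 7280, 5453, 5711 and 4886 CPM, and Csad and Mat1a, for a taurine-forming decarboxylase and methionine adenosyltransferase, rose by 1.05 and 1.04 on the log2 scale. Agxt, an aminotransferase of glyoxylate and alanine, fell from 147, 153 and 173 CPM to 56.2, 55.2, 80 and 64.2 CPM. Amdhd1 and Aldh4a1, of histidine and proline breakdown, fell by 1.04 and 0.86 on the log2 scale. Of 12 genes of the urea cycle and glutamine 3 rose, and these were Asl, argininosuccinate lyase (log2 0.96 ± 0.17, edgeR adjusted p = 6.18e-04), Arg1, arginase, and Slc25a15, an ornithine carrier (log2 0.63 and 0.57). Leaving out any 1 veh library, or Cort HPD replicate 2, left 1 of the 12 called (edgeR adjusted p of up to 0.106 for Arg1 and 0.0881 for Slc25a15).

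Some stress genes driven by ATF4 fell, and their level with veh rested in part on 1 library. Of the 18 genes of serine synthesis and ATF4 targets 6 fell and none rose, although the median was only -0.08. Of 31 genes of the unfolded protein response 4 fell and none rose, a share of 12.9% that is close to the 9.89% of all genes tested. Ddit3, the stress factor CHOP, was at 16.9, 52.4 and 14 CPM with veh and 7.21, 7.09, 6.73 and 7.05 CPM with cort, with the second veh library highest and no overlap (log2 -1.97 ± 0.35, edgeR adjusted p = 0.00172). Chac1, which breaks down glutathione, fell from 6.25, 12.7 and 15.1 CPM to 3.73, 2.21, 2.14 and 4.01 CPM, and Gdf15, a stress hormone, from 81.3, 87 and 17.6 CPM to 7.04, 11.9, 14.9 and 12.5 CPM. Atf3, Trib3 and Nupr1 were also called lower (log2 -2.32, -1.90 and -2.88). In these 3 genes Veh HPD replicate 2 was far above the others: for Trib3 the veh levels were 20.3, 88 and 10.7 CPM, and for Nupr1 12.2, 66.2 and 2.84 CPM. Without that library 3 of the 18 were called, the log2 fold change of Ddit3 was -1.12, those of Atf3, Trib3 and Nupr1 were -1.21, -0.54 and -1.02, and these last 3 calls were lost (edgeR adjusted p of up to 0.165, 0.274 and 0.195). Trib3 and Nupr1 were not called in 13 and 11 of the 15 refits without 1 library, NPD libraries among them, nor by limma voom, with no filter, with the HPD groups alone or with the replicate block. Herpud1, of the disposal of misfolded proteins, fell from 398, 494 and 271 CPM to 118, 158, 119 and 161 CPM, and Ppp1r15a and Xbp1, for a phosphatase subunit and a transcription factor of the same response, fell by 1.42 and 1.03 on the log2 scale. Fgf21, a liver hormone of protein restriction and fasting, was at 3.63, 15.7 and 3.11 CPM with veh and 2.63, 4.48, 2.22 and 3.12 CPM with cort and was not called (log2 -1.23 ± 0.55, and -0.087 without Veh HPD replicate 2).

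Lipoprotein genes had 5 of 23 higher and 3 lower, at a median of 0.06. Apoa4, an apolipoprotein of triglyceride-rich particles, rose 7.97-fold, from 203, 296 and 320.5 CPM to 2284, 2332, 2095 and 1992 CPM (edgeR adjusted p = 6.81e-07). Apoc3, an inhibitor of triglyceride clearance, rose by 1.63 on the log2 scale, and Mttp, which loads lipid on apolipoprotein B, rose from 74.5, 75.4 and 81.2 CPM to 135, 140.2, 149 and 128 CPM. Pltp, the phospholipid transfer protein, fell from 27.5, 20.4 and 25.9 CPM to 2.46, 4.83, 5.74 and 5.79 CPM.

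Fatty acid oxidation and ketogenesis had 1 of 30 higher and 4 lower (16.7% called, against 9.89% of all genes tested). Cpt1a, which admits fatty acids to mitochondria, fell from 103, 122 and 123 CPM to 66, 46.1, 76.6 and 61.9 CPM (log2 -0.89 ± 0.18, edgeR adjusted p = 0.00273). The peroxisomal thiolase gene Acaa1b fell by 1.61 on the log2 scale, and Bdh1, which makes 3-hydroxybutyrate, fell by 1.20. Of 26 genes of fatty acid and triglyceride synthesis 1 rose and 4 fell (19.2% called). In all 2 or 3 were called without Veh HPD replicate 1 or any 1 of Cort HPD replicates 1 to 3. Fads1, a desaturase of polyunsaturated fatty acids, fell from 346, 268 and 317 CPM to 91, 134, 139 and 145 CPM, and Scd1, stearoyl-CoA desaturase, was not called, with levels of 5177, 3069.9 and 2728 CPM with veh and 673, 1425, 1717 and 1828 CPM with cort (log2 -1.37 ± 0.49). In the fits of the HPD groups alone and with the replicate block it was called (edgeR adjusted p = 0.0209 and 0.0273). Among 21 genes of lipid droplets and lipolysis, 2 rose and 3 fell (23.8% called), and without Veh HPD replicates 1, 2 or 3 the number called was 3, 3 or 2. Cd36, a fatty acid translocase, rose from 32.6, 53.1 and 36.1 CPM to 253, 143, 153 and 125 CPM, and Fitm1, an endoplasmic reticulum protein of droplet formation, fell from 18.1, 17.9 and 27.5 CPM to 2.8, 2.79, 5.36 and 4.97 CPM.

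Bile acid genes were split at 3 higher and 3 lower of 23, and 3 in all were called without Veh HPD replicate 1. Cyp8b1, the sterol 12-hydroxylase that sets the share of cholic acid, rose from 239.5, 218 and 294 CPM to 468, 710.3, 659.5 and 547 CPM (log2 1.25 ± 0.24, edgeR adjusted p = 0.00192). Cyp7a1, the rate-limiting enzyme, was at 9.93, 20.6 and 69.5 CPM with veh and 172, 104, 157 and 79.8 CPM with cort and was not called (log2 1.94 ± 0.71, edgeR adjusted p = 0.118). It was called without Veh HPD replicate 3 (log2 3.08, edgeR adjusted p = 0.0323) and by DESeq2 and limma voom (adjusted p = 0.0347 and 0.0419). Abcg8, a subunit of the cholesterol exporter to bile, fell from 27.3, 27.6 and 34.5 CPM to 10.1, 11.6, 13.7 and 16.9 CPM. Cholesterol biosynthesis had 2 of 24 lower and none higher, a share of 8.33% against 9.89% of all genes tested. Leaving out any 1 HPD library left 1 or none of these calls. Insig1, a brake on sterol synthesis, was 1 of the 2 (log2 -1.01 ± 0.27), and its call was lost without Veh HPD replicate 1 or any 1 of 3 cort libraries (edgeR adjusted p of up to 0.164).

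Drug-metabolizing enzymes held the highest count of genes that rose among the lists: 17 of 39 rose and 3 fell, at a median of 0.48. Cyp2b10, the classical target of the constitutive androstane receptor, went from 2.46, 7.43 and 3.24 CPM to 352, 439, 355 and 338 CPM (86.8-fold, log2 6.44 ± 0.63, and 7.04 without Veh HPD replicate 2, edgeR adjusted p = 5.68e-05). Nr1i3, which encodes that receptor, rose from 20.7, 26.2 and 28.1 CPM to 59.9, 43, 64.4 and 48.9 CPM. The flavin monooxygenases Fmo5 and Fmo1 rose by 1.69 and 1.57 on the log2 scale, and Fmo5 was at 286, 321 and 302 CPM with veh and 1104, 929, 880.5 and 992 CPM with cort. Sult1d1, a sulfotransferase, rose as well (log2 1.47 ± 0.21). Cyp2e1, which oxidizes ethanol, fell from 1211, 1454 and 1754 CPM to 656, 579, 670.4 and 969 CPM. All mice drank ethanol at the same strength, in cort or as veh, but the volumes drunk are not given in the sources used here. Of 22 NRF2 and antioxidant genes 5 rose and 1 fell, led by Gpx3, the plasma glutathione peroxidase, from 4.69, 6.83 and 6.49 CPM to 23.1, 31.4, 30.5 and 22.5 CPM. Cbr1, carbonyl reductase, is in none of the lists and rose from 56.2, 70.9 and 58.4 CPM to 208, 207, 178 and 215 CPM (log2 1.71 ± 0.16, edgeR adjusted p = 3.16e-07). Of the NRF2 list 3 were called without Veh HPD replicate 1, and 3 with the excluded veh library put back. In that last fit Gpx3 and Cbr1 were not called (edgeR adjusted p = 0.640 and 0.336).

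**Figure D4:**
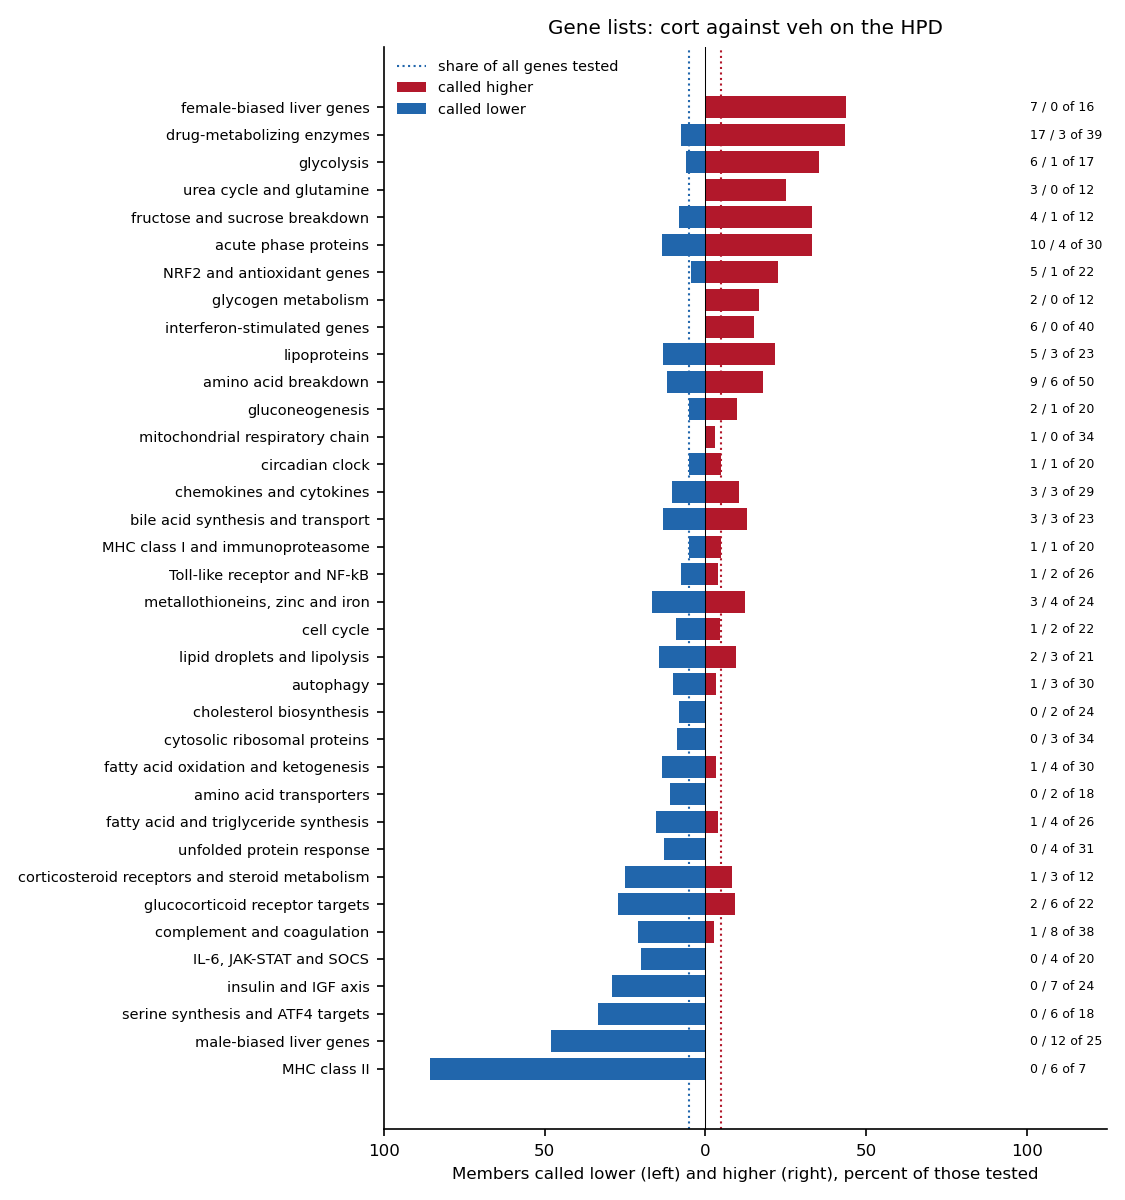
For each of 36 gene lists, the bars give the percent of tested members called lower (blue, to the left) and higher (red, to the right) in Cort HPD against Veh HPD, with the counts at the right edge. The dotted lines mark the shares of all genes tested, 5.14% lower and 4.75% higher. MHC class II (6 of 7 lower) and the male-biased genes (12 of 25 lower) reach farthest to the left, and the female-biased genes (7 of 16 higher) and drug-metabolizing enzymes (17 of 39 higher) farthest to the right.

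Several lists had a share called close to the 9.89% of all genes, or lower. The mitochondrial respiratory chain had 1 of 34 called, cytosolic ribosomal proteins 3 of 34, all lower, and the circadian clock 2 of 20. Toll-like receptor and NF-kB genes had 3 of 26 called, autophagy genes 4 of 30, amino acid transporters 2 of 18 and cell cycle genes 3 of 22. These counts were small, and leaving out Veh HPD replicate 1 left 0 respiratory chain, 0 ribosomal, 1 clock, 1 Toll-like receptor, 2 autophagy and 0 transporter genes called. With library totals and no scaling factor 17 of the 34 ribosomal protein genes were called. Metallothioneins, zinc and iron, in contrast, had 3 of 24 higher and 4 lower.

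Outside the lists, the widest rises were of genes close to silent with veh. Rasl10b, a small GTPase, had no count in the 3 Veh HPD libraries of the fit and 6.61, 9.25, 7.34 and 4.38 CPM with cort. That is at least 104.2-fold higher when the veh group is set at 3 counts in all. Mep1a, a subunit of the protease meprin, also had none in these veh libraries and 7.38, 6.34, 4.74 and 3.27 CPM with cort, at least 80.3-fold higher. The excluded Veh HPD library held 0.409 CPM of each gene, so both floors rest on leaving it out. With it put back, Rasl10b and Mep1a were still called, at log2 fold changes of 5.75 and 5.43 in place of 9.53 and 9.18. S100g, a calcium binding protein, went from 3.52, 1.9 and 0.608 CPM to 189.6, 176, 342 and 40.7 CPM, a wide spread among cort libraries that was still clear of every veh library (log2 6.50 ± 0.98, and 7.26 without Veh HPD replicate 1, edgeR adjusted p = 0.00168). Slc17a8, a vesicular glutamate transporter, rose from 1.62, 2.85 and 3.85 CPM to 28.1, 24.8, 32.3 and 14.8 CPM, and Slc3a1, a subunit of the cystine and basic amino acid carrier, from 23.4, 28 and 19.5 CPM to 163, 106, 101 and 99 CPM.

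Cib3, a calcium and integrin binding protein, had the smallest p of all genes on the HPD. It was at 28.5, 16.6 and 18.3 CPM with veh, and its 4 cort libraries held 2 counts in all, a ratio of 609.9 with a counting interval of 168.4 to 5044 (edgeR adjusted p = 2.08e-10). Car3, a carbonic anhydrase that is abundant in male liver, fell 8.37-fold, from 2193, 2200.4 and 2245 CPM to 338, 146, 356 and 219 CPM. Cyp2c23, a P450 that makes epoxides of arachidonic acid, fell from 239, 193 and 302 CPM to 17, 16.9, 23.6 and 39.9 CPM. Elovl2, an elongase of polyunsaturated fatty acids, fell from 814, 620.2 and 771 CPM to 122, 155, 221 and 199 CPM, and Nudt7, a peroxisomal coenzyme A hydrolase, from 698, 439.8 and 654 CPM to 135, 60.7, 82.7 and 107 CPM. Slc22a28, an organic anion transporter family member, fell by 3.24 on the log2 scale. Rnase1, pancreatic ribonuclease, was also called, but its veh levels were 16.3, 1.04 and 0.135 CPM and all 4 cort libraries held 1 count (ratio 383.6, counting interval 68.3 to 1.52e+04). Markers of exocrine pancreas, summed on plain library totals, were at 32.8 to 193 CPM with veh and 16.9 to 22.9 CPM with cort, with Amy2a5 at 0. On the NPD the sums were 40.2 to 85.6 CPM with veh and 17.4 to 23.6 CPM with cort. These sums did not overlap between veh and cort on either diet. The call of Rnase1 was lost without Veh HPD replicate 1 (log2 -4.37 in place of -7.75) or any 1 of the cort libraries (edgeR adjusted p of up to 0.140), and the part of carried-over pancreas was not tested.

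The cort response on the NPD was set beside that on the HPD to ask which changes depend on diet. No library is shared by the 2 contrasts, although they share 1 estimate of the spread. On the NPD 1565 genes were called (12.6%), 848 higher (6.84%) and 717 lower (5.79%). Both diets called 549 genes, 44.78% of the HPD calls and 35.08% of the NPD calls, and 548 of them moved in the same direction (286 higher, 262 lower). Many of the genes above had like values on the NPD: the log2 fold change of Igfbp2 was -3.56 there and -3.15 on the HPD, that of Cyp39a1 3.33 and 3.42, that of Cd74 -3.87 and -3.92, and that of Serpina6 -2.95 and -3.18.

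A called gene on 1 diet only is not a difference between diets, so the difference itself was tested. Of the 677 genes called on the HPD and not on the NPD, 7 had a called difference, and 6 of the 1016 called on the NPD only. In all 14 of 12391 genes were called for the difference between the HPD and the NPD response (0.113%), 7 in each direction, and 1496 had an unadjusted p under 0.05. Among these 14 genes Hsd17b6, which converts androgen metabolites, had the widest difference and the smallest p. Its levels on the HPD were 62.9, 105 and 123 CPM with veh and 144, 104, 87.4 and 126 CPM with cort, while on the NPD they were 183, 221, 116 and 149 CPM with veh and 9.16, 17.8, 9.77 and 10.3 CPM with cort. The gene fell on the NPD (log2 -3.83) and was not called on the HPD (0.25), a difference of 4.09 ± 0.38 (edgeR adjusted p = 4.08e-05).

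Ugt2b35, a glucuronosyltransferase, rose on the HPD from 55.9, 49.6 and 80.3 CPM to 181, 158, 165 and 125 CPM and was not called on the NPD (log2 -0.23), a difference of 1.58 ± 0.25 (edgeR adjusted p = 0.0120). Defb1, a defensin, rose on the HPD from 10.2, 12.9 and 12 CPM to 61.5, 48.3, 50.9 and 41.9 CPM, with a log2 value of 0.41 on the NPD. Oas1c, an oligoadenylate synthase, rose on the HPD from 0.558, 0.346 and 0.473 CPM to 4.58, 2.5, 3.06 and 2.82 CPM, and Apol9b, an apolipoprotein L, fell on the NPD (log2 -1.14) and was not called on the HPD (0.50). Slc22a30, an organic anion transporter family member, fell on the NPD (log2 -1.34) and was not called on the HPD (-0.21). Tnfsf10, described above, was the remaining gene with a higher response on the HPD.

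Among the genes with a lower response on the HPD, Chst15, a chondroitin sulfotransferase, fell from 9.04, 8.38 and 9.26 CPM to 2.8, 4.13, 4.36 and 3.94 CPM there and had a log2 value of 0.47 on the NPD, which was not called. Timp2, a metalloprotease inhibitor, and Gne, the first enzyme of sialic acid synthesis, fell on the HPD (log2 -1.21 and -0.97) and were near 0 on the NPD (0.03 and 0.06). Lpp, a focal adhesion protein, fell on the HPD and rose on the NPD (log2 -0.70 and 0.71), although leaving out Veh HPD replicates 1 or 3, or Cort HPD replicates 2 or 4, ended the HPD call (edgeR adjusted p of up to 0.119). Grn, progranulin, and Igf2r, the receptor of mannose 6-phosphate proteins, rose on the NPD (log2 1.40 and 0.96) and were not called on the HPD (0.24 and -0.14).

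G6pc, Txnip and Slc3a1 had log2 fold changes of 0.04, -0.15 and 0.92 on the NPD, against 1.17, -1.33 and 2.31 on the HPD, and their differences were not called (edgeR adjusted p = 0.196, 0.0936 and 0.0641). The called differences were close to the threshold, apart from Hsd17b6 and Ugt2b35, which were called in all 15 fits that left out 1 library. In those fits the edgeR adjusted p was up to 0.0015 for Hsd17b6 and up to 0.045 for Ugt2b35. With the excluded veh library put back, Ugt2b35 was not called and Hsd17b6 was the 1 difference called. The count of called differences without 1 veh library was 39, 6 and 2 for HPD replicates 1 to 3 and 2, 3, 9 and 2 for NPD replicates 1 to 4. It was 8, 3 and 3 without Cort HPD replicates 2, 3 and 4, and 2 and 3 without Cort NPD replicates 3 and 4. The interferon-stimulated list had a positive difference between diets for 40 of 40 genes, with a median of 1.39, against 49.82% of all genes tested and a median of -0.002, and no member was called. Its members move together by library, with Veh HPD replicate 1 the highest HPD veh value for 39 of them. The 40 genes are therefore not separate observations. The summed level of this list on the NPD was 1227, 1546, 1233 and 1269 CPM with veh and 732.5, 973.6, 837.4 and 785.7 CPM with cort. For the ATF4 list the median difference was -0.997, also with no member called.

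**Figure D5:**
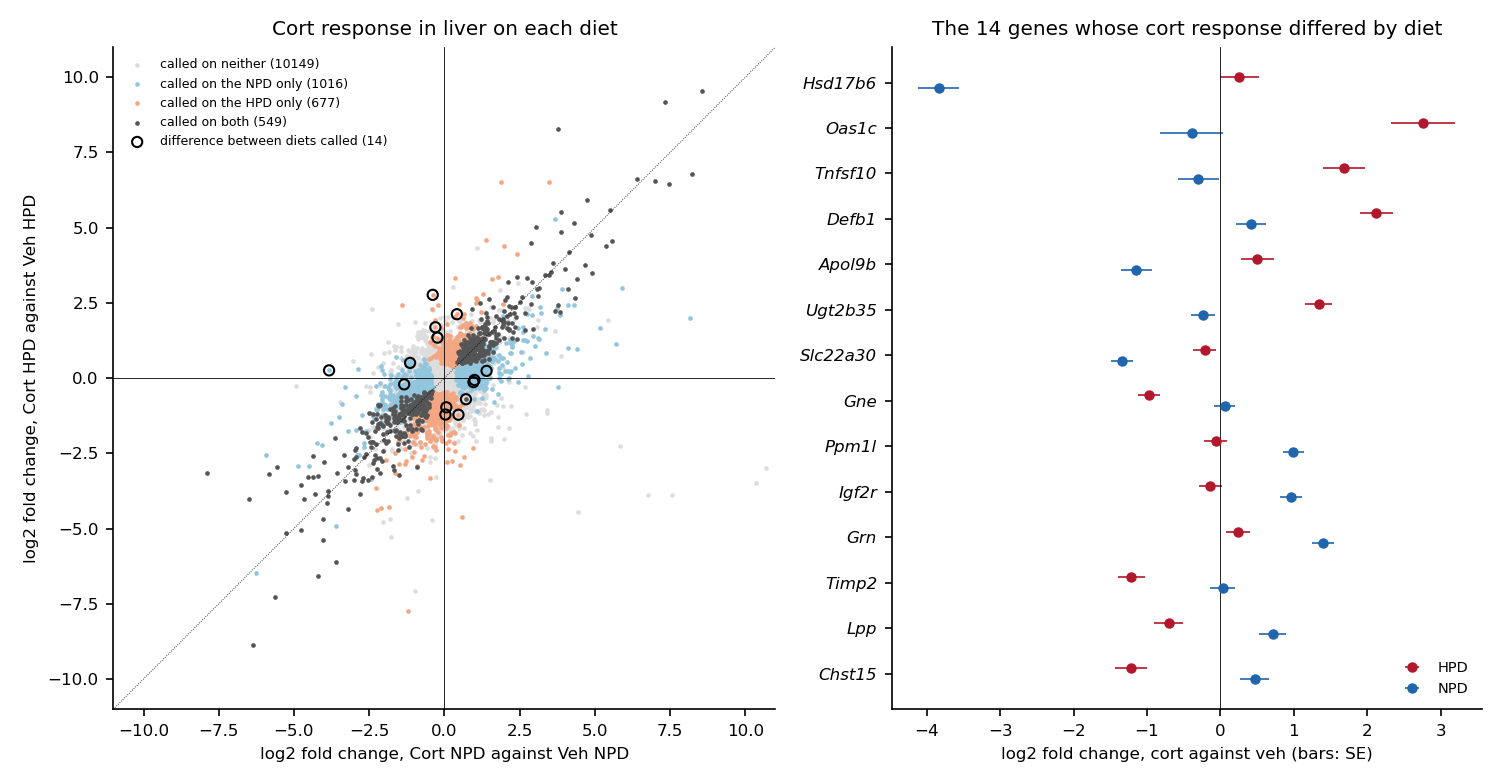
At the left, the log2 fold change of cort against veh for 12391 genes on the NPD (x axis) and the HPD (y axis), colored by the diet on which each was called, with the 14 genes called for the difference circled. At the right, those 14 genes with their log2 fold change and SE on each diet, from Hsd17b6 (-3.83 on the NPD, 0.25 on the HPD) at the top to Chst15 (0.47 and -1.22) at the bottom.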

How the data were processed

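RNA of whole liver was profiled with a 3′ end kit. Per the labels the authors used GRCm38/mm10, R 4.0.3 and limma, while the aligner, counter and annotation are not given in the sources used here. The deposited values are raw counts per gene ID, of 47643 IDs, 47224 with a symbol. Symbols and positions came from GENCODE vM21 (GRCm38). The 15 liver libraries held 8933307 to 17447524 counts. Genes passing filterByExpr (minimum count 10, total 15) were tested with the edgeR 4.0.16 quasi-likelihood test (R 4.3.3, TMM, 4 groups, robust), with contrasts of cort against veh on each diet and their difference. TMM factors ran from 0.754 to 1.11 and the biological coefficient of variation was 0.228. Simulated data with 200 genes changed 4-fold, among 12107 tested, gave 91.5% of them as called on the HPD and 75.5% for the difference. The changed genes were drawn above a minimum total count and were changed in Cort HPD only. The real HPD calls had a median absolute log2 fold change of 1.02, so these shares do not hold for most changes reported. DESeq2 1.42.0, limma 3.58.1 (voom), other scalings, filters and sample sets and the replicate number as a block were alternatives. Deviations of HPD libraries that share a number correlated at -0.09, -0.09 and 0.18, so numbers were not treated as pairs. No 2 libraries of a group agreed within sampling noise (smallest chi-square per degree of freedom 14.1).

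The comparison and the 36 gene lists (927 of 928 entries matched) were chosen with earlier results of these data known. Genes named by rule were the 12 in each direction with the smallest p, no overlap and at least 5 CPM in the higher group, the 5 widest changes, members of lists, and up to 6 differences between diets in each direction. Predicted genes were counted and not named, and some genes that met the rule are not reported here. No set test was run. Intervals and floors cover counting error only, since no molecular identifiers were counted.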

Additional observations from a re-analysis of the deposited data

Results flagged for a closer look

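In 138 named genes the 4 Cort HPD libraries were examined for 1 that lies far from the others by Dixon's test, and 13 genes (9.42%) had such a library. Independent, normally distributed values would give about 1 in 20. The CPM were not logged and the genes share the same 4 libraries, so the 2 shares cannot be compared as a measure of chance. Rnase1, at 0 in the other cort libraries, was not examined. In 10 of the 13 it was Cort HPD replicate 1, always as the highest value. Its level of Saa1 was 600.3 CPM (others 75.4 to 94.7 CPM), of Ifit1 1569 CPM (289 to 414 CPM), of Ifit3b 112.5 CPM (36.2 to 46.1 CPM) and of Cyp3a11 2979 CPM (762 to 1122 CPM). It was also highest for Mup3 (5060 CPM), Slc3a1 (162.5 CPM), H2-Aa (5.93 CPM), Steap4 (22.2 CPM), Crtc2 (10.1 CPM) and Tnfsf10 (11.4 CPM). Cort HPD replicate 2 stood above the others for Cyp2b10 (439.2 CPM), and replicate 3 for Lpp (24.1 CPM) and Igf2r (20.7 CPM).

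The response to cort differed between the diets by the test of the difference for 13 of the named genes, given as log2 HPD response minus NPD response. It was higher on the HPD for Hsd17b6 (4.09), Oas1c (3.15), Tnfsf10 (1.99), Defb1 (1.71), Apol9b (1.65), Ugt2b35 (1.58) and Slc22a30 (1.13). It was lower on the HPD for Chst15 (-1.68), Lpp (-1.42), Timp2 (-1.25), Grn (-1.16), Igf2r (-1.10) and Gne (-1.03).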

How the results depend on the processing

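Direction held under every alternative for all 121 named genes called on the HPD, and 85 of them stayed called under all 8 alternatives that left out no library and all 15 fits that left out 1. Library totals left 6 of the 121 not called, limma voom 5, no filter 8, a fit of the HPD groups alone 11, and RLE factors and DESeq2 0. Of the alternatives that left out no library, putting back the excluded veh library ended the most named calls: with it 21 were not called (Mup3, Mup11, Mup12, Mup17, Elovl3, Cyp2u1, Srd5a1, Akr1c6, Cyp3a11, Lcn2, Cbr1, Gpx3, Csad, Cyp2e1, Fitm1, Oasl1, Nfkbia, Angptl4, Pklr, Crtc2 and Slc25a15), the NPD count was 998 and the count of differences between diets was 1. Library totals with no scaling gave 275 higher and 1272 lower on the HPD and 23 differences, and a fit of the HPD groups alone gave 389 higher. Differences between diets numbered 9 with RLE factors, 7 with limma voom, 72 with no filter and 130 with DESeq2. The replicate block gave 1003 HPD calls and 10 differences, and 8 named genes lost their call. With 1 library left out, HPD calls ran from 714 to 1222 (higher 352 to 594, lower 362 to 632), NPD calls from 1078 to 1963 and differences from 2 to 39.

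Of the 18 named genes that were not called, 8 changed sign under at least 1 alternative. With the excluded library the log2 fold change on the HPD was 0.0801 for Nr3c1, 0.145 for Tsc22d3, 0.0527 for Pck1, -0.0555 for Hsd17b6, 0.157 for Slc22a30 and -0.00345 for Grn. With 1 library left out it ran from -0.185 to 0.046 for Nr3c1 (highest without Veh HPD replicate 3), -0.328 to 0.212 for Tsc22d3, -0.749 to 0.112 for Tat and -0.335 to 0.193 for Pck1 (highest without Veh HPD replicate 2), and from -0.865 (without Cort HPD replicate 1) to 1.08 for Saa1. Of the 36 list medians, 26 moved by more than the spread between libraries under at least 1 alternative that left out no library. The cause of these changes was not tested.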
